A study of Rattus norvegicus with 18 samples.

Results

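The comparison described here is that of Grk2-KO with control T-MBP cells, CD4+ T cells of the Lewis rat that recognise myelin basic protein, recovered from the spleen on day 3 after transfer into recipient rats. Genes were taken when their normalized counts averaged 10 or more across the 6 libraries, which left 6985 of the 32882 genes in the table. The 6 libraries are part of 18 rat libraries of the series. A further 6274 genes had at least 1 read but a lower mean, and the means nearest to the limit were 10.01 inside and 10.00 outside. The 3 Grk2-KO libraries came from cells that received Cas9 ribonucleoprotein with a guide against *Grk2* and carried EGFP. The 3 control libraries came from cells labelled wild type that received a non-targeting guide and carried BFP, so that the guide and the fluorescent marker cannot be told apart. Both groups had been restimulated in culture before transfer, and both were enriched for CD4 and sorted on their marker after recovery. Each genotype rests on 1 guide, and the T cell line behind these libraries is not stated in the sources used here. The study describes its replicates as biological, while the labels number the libraries and name no animal.

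GRK2 is a kinase that phosphorylates activated G protein-coupled receptors. Arrestins then bind the phosphorylated receptor, uncouple it from its G protein and carry it into the cell, a process called desensitization. In T cells the receptors concerned include the sphingosine 1-phosphate receptor S1PR1, which draws cells from tissue into the blood, and chemokine receptors. The comparison asks how the transcriptome of T cells edited in *Grk2* differs from that of control cells in a peripheral lymphoid organ.

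The guides are shown because they are the only designed difference between the groups apart from the marker. They are written 5′ to 3′, with the 10 bases next to the PAM, where mismatches are tolerated least, in capitals. The guide against *Grk2* was
Grk2: gatttgtcagAACCTCCGAG
and the non-targeting guide was
Non-Targeting: gctgcatgggGCGCGAATCA
Both have 20 bases, of which 50% are G or C in the *Grk2* guide and 65% in the non-targeting guide. The target site of the *Grk2* guide was not placed in the genome here.

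Each library held between 1168268 and 1473215 reads on genes, spread over 10602 to 10967 detected genes. Genes of T cells marked all 6 libraries. The 10 T cell markers summed to between 4737 and 5108 normalized counts per library, and none of them was called. *Cd4* itself was low, at 13.01, 11.1 and 20.2 normalized counts in the control libraries and 18.3, 14.5 and 16.4 in the Grk2-KO libraries, while *Cd8a* and *Cd8b* were at 0 in every library. The summed level of 10 B cell markers was between 4.43 and 6.50 in control and between 2.62 and 6.21 in Grk2-KO libraries. *Ms4a1* and *Pax5*, which define B cells, were at 0 in all 6 libraries. The 13 myeloid and dendritic cell markers summed to between 2.02 and 3.25 in control and between 5.46 and 6.21 in Grk2-KO libraries. Among them *Adgre1*, *C1qa*, *C1qb* and *Clec9a* were at 0. Granulocyte and mast cell markers summed to at most 4.34 in control and 0.910 in Grk2-KO libraries. NK cell markers were higher, with sums between 370 and 441 in control and between 379 and 433 in Grk2-KO libraries. None of the 3 NK cell markers tested was called.

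The edited gene was lower in the cells that received its guide. *Grk2* (ENSRNOG00000018985, chromosome 1, 219536219 to 219544328, minus strand, Rnor_6.0) was at 166, 166 and 142 normalized counts in the control libraries and at 53.3, 64.2 and 87.3 in the Grk2-KO libraries. The groups did not overlap. On the log2(normalized count + 1) scale, on which all fold changes here are given as Grk2-KO minus control, *Grk2* fell by 1.22 ± 0.13 (SE, n = 3 per group, 95% interval −1.49 to −0.96). The SEs, intervals and p values of limma here rest on a variance shared across genes. With the block its prior degrees of freedom were 141, against 2 residual ones. They do not measure the spread of a gene's own replicates. The 3 pairs of equal replicate number were at −1.62, −1.36 and −0.69 for *Grk2*. The adjusted p was 1.76e-12 with the replicate number as a block in limma and 6.45e-05 without it, and a two-sided exact permutation test gave p = 0.1, the smallest that 3 against 3 libraries allow. Reads of the 3′ end do not show the edit, so the level is no measure of the share of edited cells.

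Across the transcriptome 109 of 6985 genes (1.56%) were called at an adjusted p under 0.05 with the replicate number as a block, 65 of them higher (0.931%) and 44 lower (0.63%) in Grk2-KO cells. Without the block 19 genes (0.272%) were called, 10 higher (0.143%) and 9 lower (0.129%), and all 19 were among the 109. The share of calls that were higher was 59.6% and moved to 45.3% with quantile normalization and 47.8% with edgeR. Most genes differed little, since 94.3% of those tested lay within 0.5 of 0 and the median over all genes was 0.02. Of the 109 genes, 106 moved the same way in all 3 pairs of equal replicate number, against 31.3% of all genes tested. The groups did not overlap in 78 of the 109 genes and in all 19 genes called without the block, against 12.2% of all genes tested. No measure here was independent of the libraries that gave the calls, so these shares only describe them. The median level of the 109 genes was 139 normalized counts, against 54.2 for all genes tested. Calls at a mean under 50, of which there were 26, had a median size of 1.04 on the log2 scale, and the 83 calls at higher means a median size of 0.46.

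**Figure D1:**
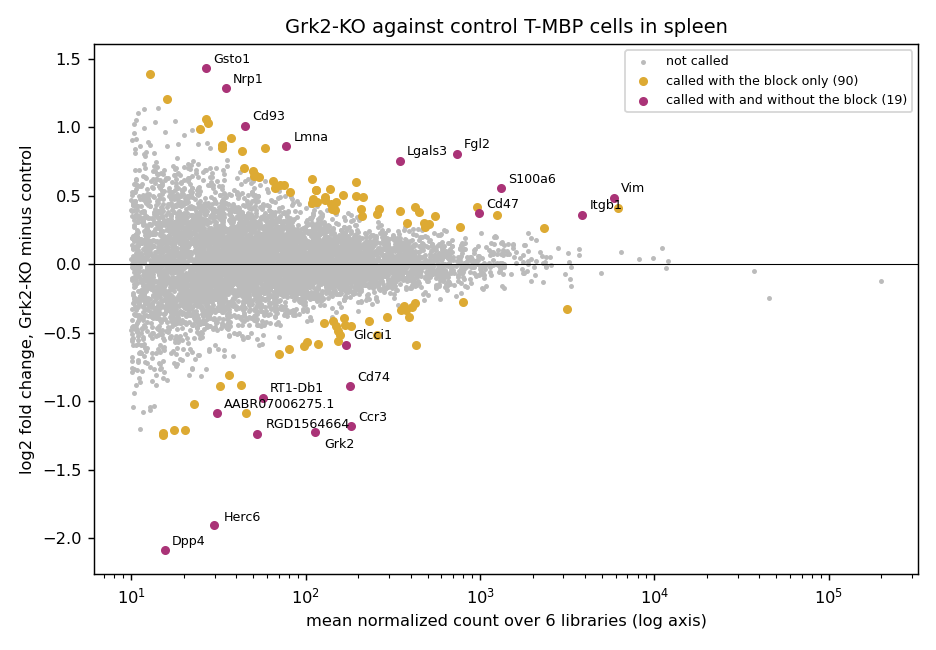
Each point is 1 of 6985 genes, with its mean normalized count over 6 libraries on the horizontal log axis and its log2 fold change (Grk2-KO minus control) on the vertical axis. The 19 named points were called with and without the replicate block, the 90 yellow points with the block only, and larger changes were needed for a call at low levels.

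The 19 genes called with and without the block included receptors and adhesion molecules of the cell surface. *Ccr3*, a chemokine receptor best known on eosinophils, was at 207, 269 and 281 normalized counts in control and at 96.9, 120 and 114 in Grk2-KO libraries. All 3 Grk2-KO values were below all control values, and *Ccr3* fell by 1.18 ± 0.11 (adjusted p = 8.38e-17 with and 6.77e-06 without the block). *Dpp4*, the surface peptidase CD26, was at 20.6, 26.6 and 30.4 in control and at 6.11, 5.18 and 4.55 in Grk2-KO libraries, and fell by 2.09 ± 0.36 (adjusted p = 1.98e-05 and 0.00162). It had the largest fall of all genes called, at a low level.

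*Itgb1*, the β1 integrin chain that pairs with the α4 chain, was at 3334, 3508 and 3286 in control and at 4296, 4279 and 4449 in Grk2-KO libraries. The groups were well separated, with a rise of 0.36 ± 0.07 (adjusted p = 5.52e-05 and 0.0337). *Cd47*, a surface protein that binds the phagocyte receptor SIRPα, rose by 0.37 ± 0.07 from 859 ± 60.9 to 1110 ± 36.5 (SD, n = 3, adjusted p = 0.000153 and 0.049). *Nrp1*, a co-receptor for semaphorins and VEGF, was at 13.01, 23.3 and 23.3 in control and at 34.9, 49.7 and 64.6 in Grk2-KO libraries, and rose by 1.29 ± 0.24 (adjusted p = 8.69e-05 and 0.0229). *Cd93*, a transmembrane lectin-like receptor, rose by 1.01 ± 0.21 (adjusted p = 0.000574 and 0.0468). Its Grk2-KO libraries were at 86.5, 45.6 and 51.8. The annotation classes the *Cd93* entry counted here as a processed transcript, not as protein coding.

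Among secreted and cytoplasmic proteins, *Fgl2* (fibrinogen-like 2, a secreted protein of activated and regulatory T cells) was at 480, 564 and 561 in control and at 984, 951 and 871 in Grk2-KO libraries. It rose by 0.81 ± 0.07 (adjusted p = 1.12e-16 and 6.77e-06). *Gsto1*, a glutathione transferase, had the largest rise of all genes called, from 14.1, 11.1 and 17.2 to 39.3, 40.4 and 38.2, or 1.43 ± 0.27 (adjusted p = 0.000106 and 0.00456). *Glcci1*, named as a transcript induced by glucocorticoids, fell by 0.59 ± 0.11 from 205 ± 20.5 to 137 ± 17.6 (adjusted p = 8.89e-05 and 0.0298). *Herc6*, an interferon-inducible gene of the ubiquitin ligase family, was at 30.4, 52.1 and 55.7 in control and at 7.86, 6.21 and 27.3 in Grk2-KO libraries. It fell by 1.90 ± 0.28 (adjusted p = 2.04e-07 and 0.0119), and Grk2-KO replicate 3 lay close to the lowest control library. A pair of genes without a name, *RGD1564664* and *AABR07006275.1*, fell by 1.24 ± 0.19 and 1.09 ± 0.24.

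**Figure D2:**
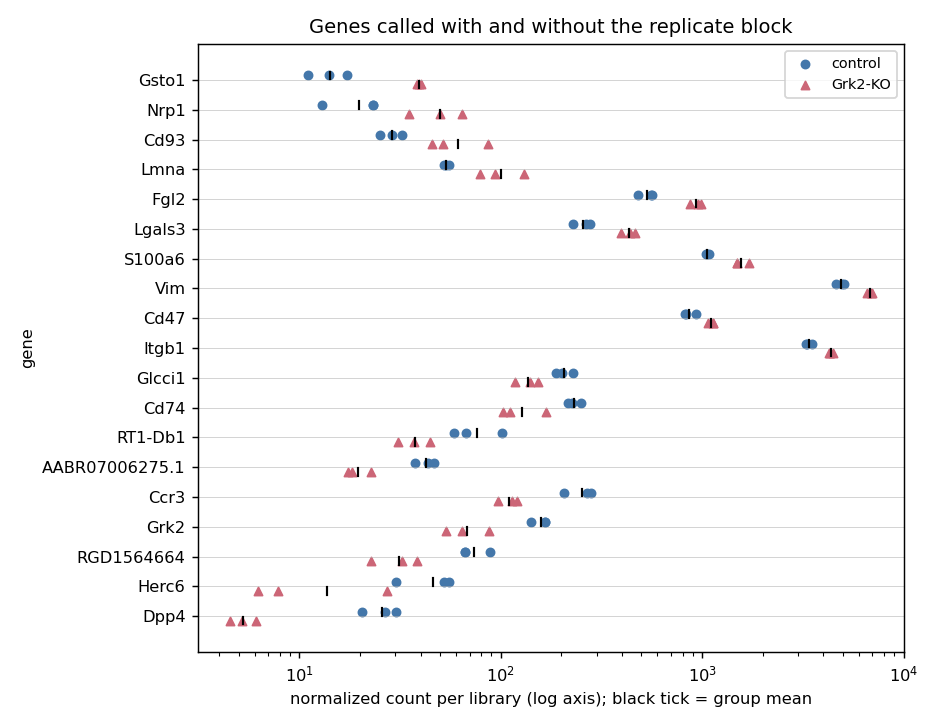
Normalized counts per library (log axis) of the 19 genes called with and without the replicate block, in order of fold change. Circles are the 3 control and triangles the 3 Grk2-KO libraries, and the short black lines are group means; the groups do not overlap in any of the 19.

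Genes of calcium-binding S100 proteins, annexins, galectins and intermediate filaments formed the list with the most calls shared by both fits. Of 22 listed genes 20 were tested, 6 rose and none fell with the block, where 0.931% of all genes tested rose, and 4 of the 6 were also called without it, where 0.143% rose. Members lay higher in 19 of 20 cases, against 3770 of 6985 for all genes tested, with a median of 0.26 against 0.02. The gene lists here and below were written with earlier results of these data known. Shares of their members set beside all genes tested therefore only describe them. *Vim*, the intermediate filament vimentin, was at 5067, 4619 and 4976 in control and at 6980, 6612 and 6921 in Grk2-KO libraries. It rose by 0.48 ± 0.07 (adjusted p = 1.14e-08 and 0.00183). *Lmna*, which encodes the nuclear filaments lamin A and C, rose by 0.86 ± 0.16 (adjusted p = 5.77e-05 and 0.018), from 52.0, 55.4 and 53.6 to 78.6, 93.2 and 130. *Lgals3*, the β-galactoside-binding galectin-3, rose by 0.76 ± 0.09 (adjusted p = 1.86e-11 and 0.000125), from 229, 276 and 265 to 441, 397 and 464. *S100a6* was nearly constant among control libraries, at 1049, 1062 and 1080, and rose by 0.56 ± 0.07 to 1719, 1493 and 1494 (adjusted p = 2.13e-10 and 0.000487). *S100a4* rose by 0.41 ± 0.07 and *Anxa2* by 0.30 ± 0.08 with the block, and both groups overlapped (adjusted p = 0.11 and 0.528 without it). With quantile normalization 3 members were called and 18 of 20 were higher.

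Genes of mitosis and DNA replication were called only with the block. Of the 25 tested, 24 were higher in Grk2-KO cells, against 3770 of 6985 for all genes tested. With a median of 0.30, 6 rose and none fell, where 0.931% of all genes tested rose. The 6 were *Top2a* (topoisomerase IIα), *Cdk1* (the mitotic cyclin-dependent kinase), *Birc5* (survivin), *Kif20b* (a kinesin of cytokinesis), and *Cenpe* and *Cenpf* (kinetochore proteins). *Top2a* was at 1260, 1068 and 955 in control and at 1428, 1530 and 1239 in Grk2-KO libraries. The highest control lay above the lowest Grk2-KO library, each pair of equal number went up, and the rise was 0.36 ± 0.07 (adjusted p = 0.000222 with and 0.153 without the block). *Cdk1* rose by 0.54 ± 0.13, from 128, 80.9 and 73.9 to 156, 133 and 115 (adjusted p = 0.00528 and 0.24). The replication helicase genes *Mcm3* and *Mcm7* differed by 0.00 and 0.02. The summed level of the list was between 4128 and 5661 in control and between 5065 and 6069 in Grk2-KO libraries. None of the 6 calls was left without replicate 2. In bulk libraries a larger share of cycling cells and more of these RNAs per cell cannot be told apart.

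MHC class II genes, which present antigen and are expressed by activated rat T cells, were lower in Grk2-KO cells. Of 10 listed genes 5 were tested, and all 5 were lower, against 3215 of 6985 for all genes tested, with a median of −0.97. With the block 4 of the 5 fell, where 0.63% of all genes tested fell, and *Cd74* and *RT1-Db1* were also called without it, where 0.129% fell. *Cd74*, the invariant chain that escorts class II molecules, was at 252, 216 and 226 in control and at 168, 111 and 103 in Grk2-KO libraries. It fell by 0.89 ± 0.11 (adjusted p = 1.87e-10 and 0.00155). *RT1-Db1*, a β chain, fell by 0.97 ± 0.18, from 101.9, 67.6 and 58.7 to 44.5, 37.3 and 30.9 (adjusted p = 0.000102 and 0.0298). Library 1 was the highest of its group in both genotypes for this gene. *RT1-Da*, an α chain, fell by 1.09 ± 0.21 and *RT1-Bb*, a β chain, by 1.21 ± 0.31 (adjusted p = 0.0694 and 0.255 without the block). *RT1-Ba* differed by −0.37 and was not called. The number of calls was between 1 and 3 when a replicate was left out, with 1 call, *Cd74*, without replicate 2. The B cell markers summed to at most 6.50 counts in any library, while *Cd74* averaged 231 in control and 127 in Grk2-KO libraries. The myeloid and dendritic cell markers summed to between 2.02 and 3.25 in control and between 5.46 and 6.21 in Grk2-KO libraries. Whether other cells contributed to the class II levels was not tested. RT1 genes have near-identical relatives, so reads may be lost or shared between them.

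Interferon-stimulated genes were lower in 15 of 20 cases, against 3215 of 6985 for all genes tested, with a median of −0.26. With the block 4 of them fell, where 0.63% of all genes tested fell, and none was called without it. *Isg15*, a ubiquitin-like protein, was at 108, 140 and 177 in control and at 77.7, 84.9 and 119 in Grk2-KO libraries. The groups overlapped, each pair went down, and it fell by 0.58 ± 0.13 (adjusted p = 0.00153 and 0.197). *Gbp4*, a guanylate-binding protein, fell by 0.65 ± 0.16, *Mx2*, an antiviral GTPase, fell by 0.62 ± 0.15, and *Ifit2*, which binds viral RNA, fell by 1.23 ± 0.35. *Irf1* and *Irf9*, transcription factors of the interferon response, differed by 0.15 and 0.11 and were not called. Without replicate 2 none of the 20 was called.

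**Figure D3:**
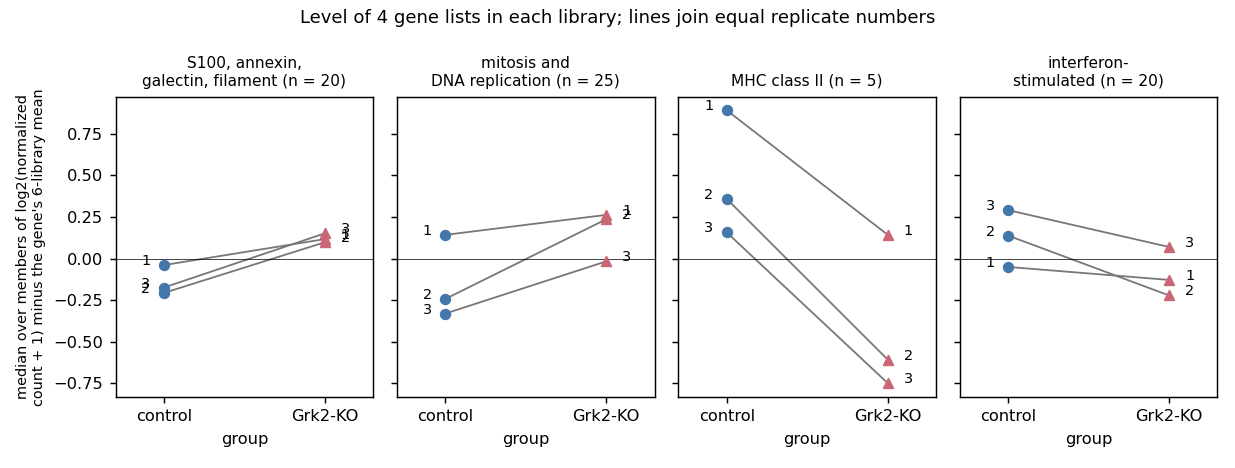
For each library, the median over the tested members of a list of the log2(normalized count + 1) minus the gene's mean over 6 libraries, with lines joining equal replicate numbers. The 3 pairs moved in the same direction in each of the 4 lists, while the 2 groups overlapped for the mitosis and the interferon-stimulated lists.

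Promoters of these groups are shown because their members moved together. They are RefSeq sequences of GRCr8, 250 bases before to 50 after the gene start, printed 5′ to 3′ on the strand of the gene, and in each the capitals mark matches on either strand of the motif named for its own list, not those of the other motifs. CTGATTGG, the core of the Y box of class II promoters, was found in 4 of the 5 class II genes tested, *RT1-Ba*, *RT1-Bb*, *RT1-Da* and *RT1-Db1*, against 5.52% of the promoters of 5522 tested genes and 3.75% of all 27457. Of the 4 called class II genes 3 had a match, and *Cd74* had none. GAAA repeated after a gap of 2 bases, a core of the interferon-stimulated response element, was found in 9 of 15 interferon-stimulated genes with a promoter sequence, against 3.50% of the tested genes and 4.12% of all. Of the 4 called members only *Gbp4* had a promoter sequence here, with a match. TTTGAA, the cell cycle homology region of mitotic genes, was found in 8 of 21 genes of the mitosis list, 5 of them among the 6 called, against 12.8% of the tested genes and 19.4% of all. CTGATTGG was also in 4 of these 21, *Cdk1* among them. The motifs do not contain each other, and a match is a description of letters. Each motif was chosen for its list, so its share there does not bear on the effect of the *Grk2* guide. Those of an α and a β chain gene of class II, of an interferon-stimulated and of a mitotic gene follow.
RT1-Da (chr20:4515165-4515464, plus strand): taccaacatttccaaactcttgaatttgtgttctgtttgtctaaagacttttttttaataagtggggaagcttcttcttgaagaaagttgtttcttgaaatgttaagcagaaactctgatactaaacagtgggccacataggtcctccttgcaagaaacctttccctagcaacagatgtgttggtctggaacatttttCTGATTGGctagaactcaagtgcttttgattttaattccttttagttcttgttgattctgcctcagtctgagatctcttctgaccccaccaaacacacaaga
RT1-Bb (chr20:4604069-4604368, minus strand): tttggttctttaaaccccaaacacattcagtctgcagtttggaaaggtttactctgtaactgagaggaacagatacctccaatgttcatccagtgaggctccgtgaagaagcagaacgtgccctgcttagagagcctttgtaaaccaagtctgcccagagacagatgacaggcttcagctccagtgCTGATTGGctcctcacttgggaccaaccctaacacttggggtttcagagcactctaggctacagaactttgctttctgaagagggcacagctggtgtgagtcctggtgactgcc
Gbp4 (chr2:233978236-233978535, plus strand): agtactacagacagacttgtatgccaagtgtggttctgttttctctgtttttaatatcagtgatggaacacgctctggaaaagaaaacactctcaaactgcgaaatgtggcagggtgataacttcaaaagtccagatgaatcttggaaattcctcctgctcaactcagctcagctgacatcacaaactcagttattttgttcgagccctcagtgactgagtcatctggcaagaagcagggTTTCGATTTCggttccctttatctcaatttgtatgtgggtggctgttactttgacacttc
Cdk1 (chr20:19265043-19265342, plus strand): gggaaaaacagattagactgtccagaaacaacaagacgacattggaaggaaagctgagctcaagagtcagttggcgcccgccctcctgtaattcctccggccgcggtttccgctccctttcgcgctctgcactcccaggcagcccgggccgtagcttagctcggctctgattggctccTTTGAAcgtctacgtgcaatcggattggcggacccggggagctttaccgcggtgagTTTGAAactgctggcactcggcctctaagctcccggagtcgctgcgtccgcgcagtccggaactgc

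The machinery around GRK2 was measured next. Of 18 tested genes of receptor desensitization and G proteins, *Grk2* was the only call, where 0.63% of all genes tested fell. *Grk6*, a related kinase, was at 256, 307 and 277 in control and at 293, 326 and 317 in Grk2-KO libraries, a difference of 0.16 with a 95% interval of −0.02 to 0.33. *Arrb2* (β-arrestin 2) differed by −0.12 (−0.40 to 0.16) and *Gnai2* (an inhibitory G protein α subunit) by 0.10 (−0.03 to 0.23). *Arrb1* had a mean of 2.42 normalized counts and was not tested. The intervals of these 3 genes lay within 0.5 of 0 but rest on the variance shared across genes. They do not bound the change by a gene's own replicates and do not show equal levels.

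None of 8 tested genes of S1P receptors and tissue egress was called. *S1pr1* was at 324, 336 and 321 in control and at 357, 341 and 303 in Grk2-KO libraries, a difference of 0.03 with a 95% interval of −0.15 to 0.20. *Klf2*, a transcription factor that drives *S1pr1*, and the lymph node homing receptor *Ccr7* had means of 4.07 and 0.169 and were not tested. Of 9 tested chemoattractant receptors, *Ccr3* fell and *Cxcr4*, the receptor of CXCL12, rose by 0.41 ± 0.09 with the block (adjusted p = 0.00462 with and 0.294 without). Over all genes tested 0.63% fell and 0.931% rose. *Cxcr4* was at 230, 265 and 186 in control and at 349, 315 and 240 in Grk2-KO libraries, which overlapped. *Cxcr3*, the receptor for interferon-induced chemokines, differed by 0.19 (0.02 to 0.36, adjusted p = 0.379).

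Of 24 tested integrins, integrin activators and adhesion molecules, *Itgb1* and *Cd44* rose and none fell, where 0.931% of all genes tested rose, with a median of 0.00. *Cd44*, the hyaluronan receptor, was at 314, 387 and 390 in control and at 511, 456 and 488 in Grk2-KO libraries, which did not overlap (0.42 ± 0.08, adjusted p = 0.000408 with and 0.076 without the block). The 95% intervals of the integrin chains *Itga4*, *Itgal* and *Itgb2* were −0.38 to −0.03, −0.23 to 0.18 and −0.13 to 0.48, and none was called. Over the 44 tested genes of the study's adhesion, chemotaxis and egress modules, *Grk2* and *Itgb1* were called, against 1.56% of all genes tested, with a median of −0.02. That list includes *Grk2* itself. None of 30 actin regulators was called, with a median of 0.08, and none of 13 genes of the cAMP pathway, with a median of −0.01. Of 16 immediate early genes none was called.

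Genes of T cell activation and effector function were called in single cases, with the block only. Of 12 tested activation markers and costimulators 2 fell, where 0.63% of all genes tested fell. Of 7 cytokines, chemokines and cytotoxic effectors 1 fell, as did 1 of 10 naive and memory genes. *Il2ra*, the interleukin 2 receptor α chain, was at 214, 314 and 267 in control and at 152, 220 and 225 in Grk2-KO libraries, which overlapped (−0.42 ± 0.10, adjusted p = 0.00512 with and 0.327 without the block). *Tnfrsf18* (GITR, a costimulatory receptor) fell by 0.60 ± 0.14, from 116, 124 and 111 to 57.6, 79.7 and 99.1. *Tnfrsf4* (OX40), from the same family, differed by −0.62 ± 0.29 and was not called, although its groups did not overlap at 22.2 to 25.3 and 13.5 to 17.5. *Ccl5*, a chemokine of effector T cells, fell by 0.59 ± 0.09 (adjusted p = 3.2e-07 and 0.0684). Control replicate 1, at 356, was close to the Grk2-KO libraries at 342, 301 and 362, while the other two controls were at 571 and 628. *Lef1*, a transcription factor of naive T cells, fell by 0.89 ± 0.24, from 43.4, 43.2 and 39.5 to 17.5, 23.8 and 26.4 (adjusted p = 0.0249 and 0.134). None of 17 tested T helper lineage factors was called, with *Tbx21* (T-bet) at −0.08 (−0.25 to 0.10). *Ets1* differed by −0.13 (−0.26 to 0.00). *Il17a* differed by −0.01 with a wide interval of −0.64 to 0.61 at a mean of 16.5 in control and 16.9 in Grk2-KO libraries, and *Ifng* had a mean of 3.31 and was not tested.

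**Figure D4:**
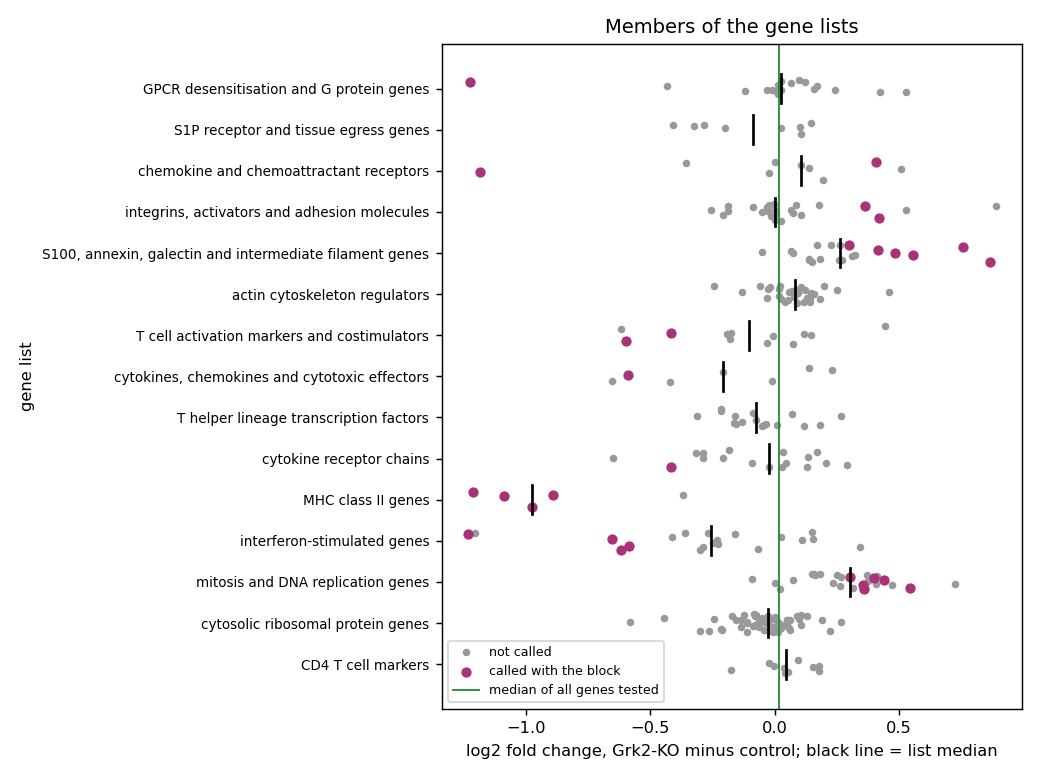
Log2 fold change (Grk2-KO minus control) of each tested member of 15 gene lists, with calls made with the replicate block in purple, the list median as a black line and the median of all 6985 genes as a green line. The median of the MHC class II list, at −0.97, is the lowest of the 15, and the members of the S100 and mitosis lists lie mostly to the right of 0.

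The remaining genes among the 12 largest rises and 12 largest falls were called with the block only. Rises were those of *Dync2li1* (a chain of the dynein of cilia, 1.39 ± 0.38), *Arhgef39* (a guanine nucleotide exchange factor, 1.21 ± 0.34), *Mmp13* (a collagenase, 1.06 ± 0.27), *Hsd11b1* (an enzyme that regenerates active glucocorticoid, 1.03 ± 0.26), *Melk* (a kinase of dividing cells, 0.99 ± 0.27), *Tox* (a nuclear factor of T cells, 0.92 ± 0.22), *Gpd2* (the mitochondrial glycerol phosphate dehydrogenase, 0.85 ± 0.23) and *Ctnnd2* (δ-catenin, 0.85 ± 0.18). Falls were those of *Ms4a4c* (a membrane protein, −1.25 ± 0.34), *Casp4* (an inflammatory caspase, −1.21 ± 0.32) and *Farp1* (a FERM domain exchange factor, −1.02 ± 0.28). *Tox* was at 28.2, 19.95 and 28.3 in control and at 58.5, 47.6 and 40.9 in Grk2-KO libraries, which did not overlap. *Dync2li1* was at 2.17, 13.3 and 7.08 in control libraries, so its fold change rests on few reads. Of other housekeeping groups, none of 60 cytosolic ribosomal protein genes, 68 nuclear-encoded respiratory chain genes, 11 glycolysis genes or 15 sterol genes was called, with medians between −0.02 and 0.08. Of 12 mitochondrially encoded genes *Mt-nd6* fell, in 2 of the 3 pairs, where 0.63% of all genes tested fell. *Mt-nd6* lies on the other strand from most mitochondrial genes, and whether counting used the strand is not given in the sources used here.

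The spleen libraries of a second editing experiment, in which *Ets1* was targeted, have their own 3 controls, and Ets1-KO cells against these were fitted in the same way. Of 6979 genes tested there, 155 (2.22%) were called. *Ets1* itself was at 1965, 2038 and 2227 in the controls and at 1868, 1763 and 2370 in the Ets1-KO libraries. Its difference was −0.06 and was not called (limma adjusted p = 0.854). As for *Grk2*, the level is no measure of the share of edited cells. Of the genes called in Grk2-KO cells, 102 were tested in both experiments, and 20 of them (19.6%) were called in Ets1-KO cells too, which are 13.6% of the 147 Ets1-KO calls tested in both. The direction was the same for 7 of the 20. No gene's effect differed between the experiments at an adjusted p under 0.05 with pairs by replicate number (0% of 6490, limma, 750 at an unadjusted p under 0.05), and 43 did without the pairs. *Fgl2* rose in both, by 0.81 and 0.78, as did *S100a6*, by 0.56 and 1.08, and *S100a4*, by 0.41 and 0.76. *Cd74* and *RT1-Db1* fell in both, *Cd74* by 0.89 and 0.72 and *RT1-Db1* by 0.97 and 0.66. The controls of both experiments received a non-targeting guide, and the study's co-transfers paired EGFP knockout cells with BFP control cells. Changes shared by both experiments therefore cannot be told apart from effects of the marker or of the non-targeting guide. *Ccr3*, *Vim*, *Lgals3* and *Itgb1* were not called in Ets1-KO cells, at 0.19, −0.13, −0.25 and 0.02. Genes of mitosis and DNA replication had opposite signs, with 24 of 25 higher in Grk2-KO and 25 of 25 lower in Ets1-KO cells, where 16 fell and the median was −0.60. *Cdk1* was at 0.54 in Grk2-KO and at −0.70 in Ets1-KO cells, a difference of 1.24 (unadjusted p = 0.000171, adjusted p = 0.15). *Ccl5* and *RGD1564664* fell in Grk2-KO and rose by 0.80 and 1.72 in Ets1-KO cells. Since Ets1-KO libraries held between 1909862 and 2248258 reads and their controls between 898092 and 1213485, depth moved with genotype there, and its part in these differences was not tested.

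**Figure D5:**
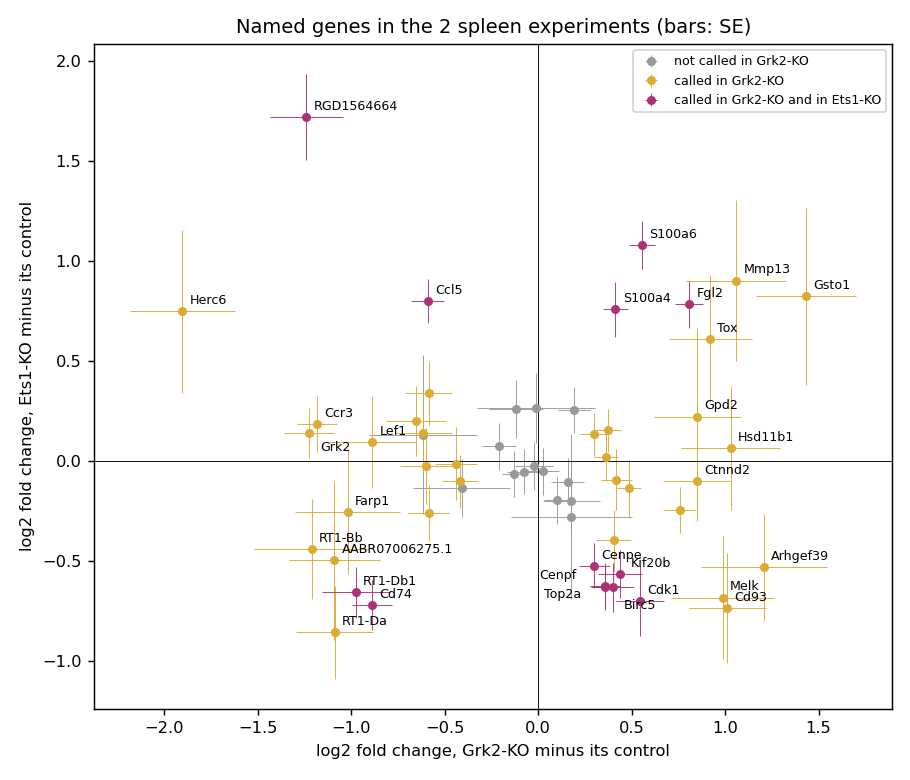
Log2 fold changes of 58 named genes in Grk2-KO (horizontal) and Ets1-KO (vertical) spleen cells, each against its own 3 controls, with SE as bars. *Fgl2*, *S100a6* and *S100a4* lie above 0 in both, *Cd74* and *RT1-Db1* below 0 in both, and the mitotic genes to the lower right.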

How the data were processed

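Bulk 3′ mRNA-seq of T-MBP cells sorted from spleen was analysed in 6 libraries, 3 Grk2-KO and 3 control, and in 6 libraries of the *Ets1* experiment for comparison. According to the methods and the submitters' processing notes, reads were aligned to Rnor_6.0 with STAR 2.7.2b, counted per gene with HTSeq 1.0.0 and scaled with DESeq2 2.11.40.7 (poscounts). In the signal values that the authors deposited, the reads of a gene are divided by the library's size factor. All positive values (100%) were whole reads times 1 factor, with a tolerance of 0.01, and these reads were recovered for the count tests. Tables of the authors' own comparisons (fold changes, p values and enriched terms) and 8 columns of human values that could not be matched to a sample were not used. Other rat and human files were not analysed here.

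Genes with a mean of at least 10 were fitted with limma 3.58.1 (lmFit, and eBayes with a trend, R 4.3.3) on log2(normalized count + 1), with the replicate number as a block and, beside it, without. Effects in the 2 spleen experiments were compared with limma on the 3 log2 ratios of each. P values were two-sided and adjusted over all genes tested by the Benjamini-Hochberg method, at a threshold of 0.05. The methods correct per animal when applicable, the labels give a number and no animal, and the correlations of the deviations of same-numbered libraries (0.144, 0.00617 and 0.122) do not show pairing in all 3 pairs. The rule for taking the numbers as pairs set a limit that each correlation had to pass, and replicate 2 did not. The fit with the block stayed the main one. The prior degrees of freedom were 141, against 2 residual ones for a single gene. Depth of 1168268 to 1473215 reads limits the precision of genes near the minimum.

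Named were *Grk2*, genes called in both fits, the 12 largest rises and 12 largest falls among calls that moved alike in 3 pairs, called members of the gene lists, and 21 genes of trafficking and T cell function, called or not. Not every gene that this rule names is reported here. The members and the gene lists were chosen with earlier results of these data known. Alternatives were other pseudocounts (0.1 and 5), filters (none and 50) and scalings, eBayes without a trend, edgeR 4.0.16, DESeq2 1.42.0, and each replicate left out. The fits were tested on simulated data. Replicates differed by more than counting noise, so that none was taken as a duplicate.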

Additional observations from a re-analysis of the deposited data

How the results depend on the processing

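The count of 109 genes changed with the block, the filter, the tool and the replicates used. It was 19 with no replicate block, 60 with a minimum of 50 (3676 genes tested), 19 with edgeR and no replicate block, 9 with DESeq2 and the replicate block, 11 with DESeq2 and no replicate block, and between 9 (without replicate 2) and 48 (without replicate 3) when a replicate was left out, each such fit having fewer samples. Without the trend, eBayes gave 0 calls with the block (571 at an unadjusted p under 0.05) and 1 with no replicate block. *Grk2* then kept its fall of −1.22 at adjusted p = 0.496 and 0.276, and in the other settings it stayed called, between −1.49 and −1.03 when a replicate was left out. With the block, the prior degrees of freedom were 141 with the trend and 3.05 without it. Fold changes were the same in both, so that only the variance estimates differed between these fits. Why the prior differed was not tested. Other pseudocounts, no filter, quantile, TMM and non-mitochondrial scaling and edgeR with the block gave between 75 and 116 calls. Of the 109 genes, 9 were called without each replicate in turn: *Ccr3*, *Fgl2*, *Grk2*, *Lgals3*, *Cd74*, *S100a6*, *Vim*, *S100a4* and *Itgb1*. All 19 genes of the fit with no block were also called by edgeR with the block, and 17 by edgeR without it, while DESeq2 called 8 of them with the block and 11 without. Pairing by replicate number was not shown for every pair. The correlation of deviations was 0.144, 0.00617 and 0.122 for equal and −0.132 to 0.0167 for unequal numbers, and control 2 correlated best with Grk2-KO 3.

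Directions of uncalled genes turned when a replicate was left out for *Tbx21* (between −0.283 and 0.0562), *Itgal* (between −0.0484 and 0.0227), *S1pr1* (between −0.031 and 0.0802) and *Il17a* (between −0.107 and 0.114). *Il17a* also turned with edgeR with the block (0.008) and without it (0.0206) and with DESeq2 without the block (0.0173). No called gene of the naming rule turned its direction in a setting that gave it an adjusted p. *Nr1d1*, *Dbp*, *Gpr15*, *Pttg1* and *Reep4*, which are given below, were not among the genes checked. The number of genes whose effect differed from that of Ets1-KO, 0 with the pairs, was 43 with no replicate block and 61 with a minimum of 50, and 0 in the other 5 settings. Depth limits the low genes most: calls at means under 50 had a median size of 1.04 on the log2 scale, against 0.46 at higher means.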

Other observations

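A pair of clock-related genes outside the lists was called with the block, both chosen after their values were seen. *Nr1d1*, the nuclear receptor REV-ERBα, was at 97.6, 118 and 105 normalized counts in control and at 149, 134 and 170 in Grk2-KO libraries (0.49 ± 0.12, limma adjusted p = 0.00974 with and 0.153 without the block). *Dbp*, a transcription factor with a strong daily rhythm, was at 49.9, 44.3 and 58.7 in control and at 96.9, 60.1 and 80.0 in Grk2-KO libraries (0.61 ± 0.17, limma adjusted p = 0.0323 and 0.237). In both genes the groups did not overlap, as in 12.2% of all genes tested. Over all genes tested 1.56% were called with the block. Of other clock genes chosen in the same way, *Nr1d2* differed by 0.16, *Per3* by 0.21, *Clock* by 0.31, *Cry1* by 0.11 and *Arntl* by −0.06, and none was called. The time of day of sampling is not given in the sources used here.

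Another call outside the lists was also chosen after its values were seen. *Gpr15*, a homing receptor of T cells, rose by 0.61 ± 0.10 with the block (adjusted p = 1.99e-05 with and 0.237 without), with overlapping groups. *Pttg1*, *Reep4* and *Mt-nd6* were the 3 calls that did not move the same way in all pairs.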
